A study of Homo sapiens with 4 samples.

Results

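Mature miRNAs were compared between neocarzinostatin-treated and untreated U2OS cells, with 1 RNA sample on each side. U2OS is a human osteosarcoma line. Neocarzinostatin (NCS) is an enediyne antibiotic that cuts both strands of DNA, and it was given at 500 ng/ml for 6 h. The control was U2OS without treatment, and the sources used here do not say whether it received a vehicle or was grown beside the treated culture. The remaining samples of the 4 in the series, U2OS infected with lentivirus for a non-targeting short hairpin (shNS) or a hairpin that targets the RNA helicase DDX1 (shDDX1), were used only where their readings are named. Total RNA was reverse transcribed and read by quantitative PCR on a set of 2 multi-well panels. The unit is the quantification cycle (Ct), on which 1 cycle earlier stands for 1 doubling of template.

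An assay was counted as quantified where its Ct was under 35 in both samples, which held for 498 of 737 different miRNA assays (67.6%). A further 90 were under that limit only after NCS, 20 only in untreated cells and 129 in neither. The log2 ratio of NCS over untreated was the untreated Ct minus the NCS Ct, centred on the mean of the quantified miRNA wells of the same panel. The same ratio was also taken with each plate set to its 3 inter-plate calibrator wells, which hold a fixed template. Values below are on the scale centred per panel unless the calibrator scale is named, and "higher" or "lower" means at least 2-fold. With 1 sample a group, no difference has a replicate check, and no p-value or error of a fold change can be given.

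Double-strand breaks activate the kinase ATM, which stabilises the transcription factor p53 and phosphorylates several RNA-binding proteins. A miRNA is cut from a long primary transcript by Drosha in the nucleus and from its hairpin precursor by Dicer in the cytoplasm, after which an Argonaute protein keeps mainly 1 arm of the hairpin. Its seed, bases 2 to 8, sets most of its targets. p53 transcribes the miR-34 genes directly and has been reported to favour Drosha processing of others through the helicase DDX5. KSRP, which binds the loops of some precursors and is an ATM substrate, has been reported to favour let-7 and a group of other miRNAs. U2OS keeps wild-type p53. The comparison asks which mature miRNAs differ 6 h after such damage.

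The sequences printed first are those of the miR-34 and miR-449 family, which share most letters of the seed and stood highest of the families compared. They are the mature sequences of RefSeq, and capitals mark bases 2 to 8. No sequence was found for miR-34c-5p.
miR-34a: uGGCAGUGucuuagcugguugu
miR-34b*: uAGGCAGUgucauuagcugauug
miR-449a: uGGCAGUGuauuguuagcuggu
miR-449b: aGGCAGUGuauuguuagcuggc

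In miR-34b* the shared letters start 1 base later than in the other members. On GRCh38.p14, miR-34a lies at chr1:9151735-9151756 on the minus strand, within the span of the non-coding host gene MIR34AHG. miR-34b* lies at chr11:111512950-111512972 on the plus strand, within the spans of BTG4 and the non-coding MIR34BHG. miR-449a and miR-449b lie on the minus strand at chr5:55170586-55170607 and chr5:55170706-55170727, both within the span of CDC20B.

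The let-7 sequences are shown because near-identical members of one seed gave very different ratios. The family represses growth genes such as RAS and HMGA2.
let-7a: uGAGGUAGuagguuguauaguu
let-7c: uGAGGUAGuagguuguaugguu
let-7e: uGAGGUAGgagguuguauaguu
let-7f: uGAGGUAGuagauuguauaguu
let-7g: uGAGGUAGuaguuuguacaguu

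Counted from the 5′ end, let-7a differs from let-7f by G12A, from let-7c by A19G and from let-7e by U9G. The let-7a sequence is encoded at 3 hairpins, of which MIRLET7A1 holds it at chr9:94175962-94175983 on the plus strand, with let-7f beside it at chr9:94176353-94176374, both within the non-coding MIRLET7A1HG. The let-7f sequence has 2 loci, this one (MIRLET7F1) and MIRLET7F2. let-7c lies at chr21:16539838-16539859 (plus, within the non-coding MIR99AHG), let-7e at chr19:51692793-51692814 (plus, within the span of SPACA6) and let-7g at chr3:52268336-52268357 (minus, within that of WDR82).

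The next 8 sequences belong to the miR-15 and miR-16 seed, to the miR-183 cluster and to the miR-99 and miR-100 seed, in each of which members that are neighbours by sequence or by gene stood apart.
miR-15a: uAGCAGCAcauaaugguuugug
miR-15b: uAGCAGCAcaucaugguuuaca
miR-16: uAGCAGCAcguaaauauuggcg
miR-96: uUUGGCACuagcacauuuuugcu
miR-182: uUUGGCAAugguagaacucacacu
miR-183: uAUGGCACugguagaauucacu
miR-99a: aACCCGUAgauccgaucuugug
miR-100: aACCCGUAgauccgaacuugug

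miR-99a differs from miR-100 by U16A. miR-15a lies at chr13:50049167-50049188 (minus, within the non-coding DLEU2), and miR-15b and miR-16 at chr3:160404607-160404628 and chr3:160404754-160404775 (plus, within the span of SMC4). The miR-16 sequence has 2 loci, the second beside MIR15A. miR-182, miR-96 and miR-183 lie on the minus strand at chr7:129770447-129770470, chr7:129774739-129774761 and chr7:129774967-129774988. No other gene of the RefSeq table spans them. miR-99a is at chr21:16539101-16539122 (plus, within MIR99AHG) and miR-100 at chr11:122152275-122152296 (minus, within MIR100HG).

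The last set holds leading miRNAs of either direction.
miR-101: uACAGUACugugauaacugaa
miR-155: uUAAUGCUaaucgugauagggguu
miR-339-5p: uCCCUGUCcuccaggagcucacg
miR-199a-5p: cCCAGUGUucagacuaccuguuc
miR-579: uUCAUUUGguauaaaccgcgauu
miR-518e: aAAGCGCUucccuucagagug
miR-525-3p: gAAGGCGCuucccuuuagagcg
miR-31: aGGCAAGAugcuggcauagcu

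Their seeds all differ. miR-101 is at chr9:4850345-4850365 (plus, within the span of RCL1), miR-155 at chr21:25573983-25574006 (plus, within the non-coding MIR155HG) and miR-339-5p at chr7:1022990-1023012 (minus, within CHLSN). miR-199a-5p has 2 loci, MIR199A1 and MIR199A2, of which MIR199A2 holds it at chr1:172144592-172144614 (minus, within the spans of DNM3 and DNM3OS). Of the lower ones, miR-579 is at chr5:32394392-32394414 (minus, within the span of ZFR), miR-518e and miR-525-3p at chr19:53729891-53729911 and chr19:53697584-53697605 (plus), and miR-31 at chr9:21512158-21512178 (minus, within MIR31HG).

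After NCS, 65 of the 498 quantified miRNAs were higher by both scalings (13.1%) and 34 were lower by both (6.83%). Centred per panel alone, 68 were higher (13.7%) and 102 lower (20.5%). With the plates set to their calibrators, 92 were higher (18.5%) and 39 lower (7.83%), so the scaling decides which direction is the more frequent. The median ratio over all quantified miRNAs was -0.198 centred per panel and 0.047 on the calibrator scale. Values ranged from -4.31 for miR-579 to 16.54 for miR-570.

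**Figure D1:**
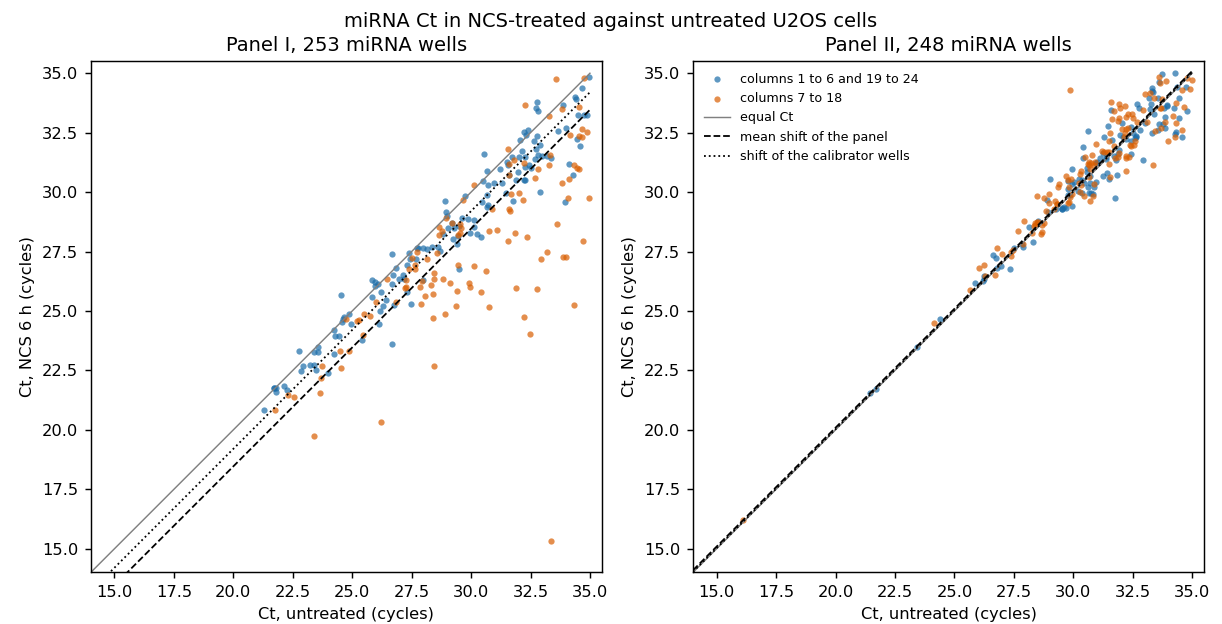
Ct after NCS (vertical axis, cycles) against Ct in untreated cells (horizontal axis, cycles) for the quantified miRNA wells of panel I (253 wells) and panel II (248 wells). Points below the dashed line, the mean shift of the panel, are higher after NCS than the panel as a whole. Panel I wells in plate columns 7 to 18 (orange) reach far below the line, while panel II wells stay close to it.

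The panels differed as a whole. On panel I the mean Ct of quantified wells went from 29.4 in untreated cells to 27.9 after NCS, and the ratios had an SD of 2.02 across miRNAs. On panel II it went from 30.8 to 30.9, and the SD was 0.815. The calibrator wells read 21.5 and 20.7 on panel I, and 18.1 in both samples on panel II, with a pooled SD of 0.237 cycles within a plate. They therefore moved by 0.799 on panel I, where the miRNA wells moved by 1.54 in the mean and 1.03 in the median. Undetermined miRNA wells on panel I numbered 69 in untreated and 29 in NCS-treated cells, against 29 and 29 on panel II. None of the 9 blank wells gave a Ct in either sample.

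Position on panel I went with the ratio. In its plate columns 7 to 18, the middle of the plate, 39 of 113 quantified wells were higher, 19 were lower and the median was 0.40. In its outer columns 7 of 140 were higher, 67 were lower and the median was -0.96. On panel II 11 of 130 wells were higher in the middle columns and 12 of 118 in the outer ones. Of the 65 miRNAs higher by both scalings, 45 are panel I assays and 39 of these lie in its middle columns. When each block of columns was centred on its own mean, 57 of the 65 and 30 of the 34 kept their call. After subtraction of the median of neighbouring wells, 60 and 25 did. The part of plate position in these ratios was not tested further.

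**Figure D2:**
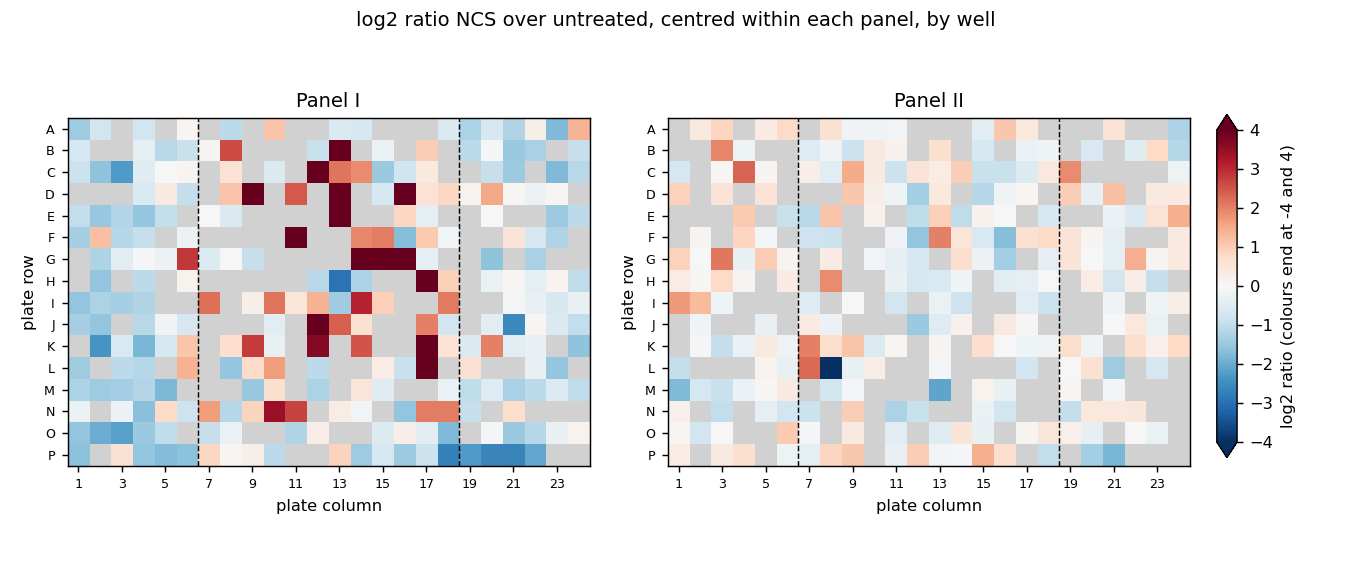
Log2 ratio of NCS over untreated, centred within each panel, in every quantified miRNA well, by plate row and column. Red is higher and blue lower after NCS, colours end at -4 and 4, grey wells were not quantified miRNAs, and dashed lines bound columns 7 to 18. Dark red wells gather between those lines on panel I, where 39 of 113 wells were at least 2-fold higher.

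The spread to hold these ratios against comes from the 7 assays that each panel repeats. Computed from such pairs, a single log2 ratio had an SD of 0.795 before centring, 1.06 centred per panel and 0.743 on the calibrator scale. Without miR-423-5p these were 0.354, 1.10 and 0.59. Centred per panel, a change of 2-fold is thus about the size of the panel-to-panel spread. That spread includes a shift common to a whole panel. The mean shifts of the panels differed by 1.63, and the uncentred ratios of the repeated assays by a median of 0.332. The repeated miRNAs lie in outer columns, so the spread of wells in the middle columns was not measured. miR-103 read Ct 21.7 in both samples on either panel, giving -1.57 on panel I and 0.06 on panel II. miR-191 read 24.6 and 24.7 on panel I (-1.58) and 24.4 and 24.7 on panel II (-0.17). These 2 abundant miRNAs, used as references, stood low on panel I after its centring and hardly moved in raw Ct. miR-423-5p disagreed in raw Ct, with 29.5 in untreated and 26.8 in NCS-treated cells on panel I (1.20) and 26.9 in both on panel II (0.12). Of the small RNAs, U6, the spliceosomal RNA, stood at -1.09 on panel I and 0.00 on panel II, SNORD38B at -1.60 and -0.31, and SNORD49A at -1.35 and -0.32. On the calibrator scale the panel I values of these 3 small RNAs were -0.35, -0.87 and -0.61. The spike-in UniSp6, a synthetic template added before reverse transcription, stood at -1.10 and 1.36. Of the 7 assays, 6 were lower on panel I than on panel II after centring per panel.

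Late wells carried much of the spread on panel II. Its 32 wells with an untreated Ct under 28 held 0 called miRNAs, whereas 17 of the 89 with an untreated Ct of 32 to 35 were higher and 4 lower. On panel I, 4 of 88 wells under 28 were higher and 42 lower, against 24 and 20 of 76 wells between 32 and 35. The untreated Ct also enters the ratio, and by the mean of both Ct the contrast was smaller. On panel I, 14 of 106 wells with a mean under 28 were then higher and 42 lower, against 9 and 19 of 49 between 32 and 35. On panel II, 16 of the 97 late wells were higher and 14 lower. Just inside the threshold of a log2 ratio of 1 lay miR-520h and miR-1181 (1.04), and just outside it miR-24-1* (0.997) and miR-654-3p (0.98). On the lower side miR-219-5p (-1.005) and miR-1267 (-1.02) were inside, and miR-190 (-0.999) and miR-505 (-0.996) outside.

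The miR-34 and miR-449 family, which represses MET, CDK4 and CCND1, was higher after NCS in every member that could be compared. miR-34c-5p went from Ct 33.9 to 29.6, a log2 ratio of 2.84 centred per panel and 3.57 on the calibrator scale. miR-34b*, from the same primary transcript, went from 33.3 to 31.1 (2.28 and 2.22). miR-449a, from another gene, went from 34.97 to 29.77 (3.67 and 4.41). All 3 quantified members were thus higher by both scalings, against 13.1% of all miRNAs. Their untreated Ct lay between 32 and 35, where 24 of 76 wells on panel I and 17 of 89 on panel II were higher. In shNS cells they read Ct 27.3, 27.3 and 24.8, in the order above. Untreated cells read a median of 4.58 cycles later than shNS on panel I and 3.27 on panel II, and all 3 members exceeded that. After NCS the medians were 3.12 and 3.33, which miR-34b* and miR-449a exceeded and miR-34c-5p did not. Whether signal was lost in untreated cells or gained after NCS was not tested. Each of the 3 members stayed at least 2-fold higher under all 9 scalings tried. The scalings, here and below, reuse the same wells and mostly take 1 shift off a panel or block, so they are not independent checks. The 3 members lie in different places, miR-449a in the middle and miR-34c-5p in the outer columns of panel I, and miR-34b* on panel II.

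The remaining members were under Ct 35 only after NCS. miR-34a, the broadly expressed member, was at Ct 35.8 in untreated cells and 23.6 after NCS. Against the limit of 35 it was at least 912-fold higher centred per panel, and at least 469-fold with its block of columns centred. Its well is in the middle of panel I, and it read Ct 20.0 in shNS cells. miR-449b was undetermined in untreated cells and read 34.7 after NCS. The opposite arm of the miR-34a hairpin, miR-34a* on panel II, went from 27.4 to 26.8, a log2 ratio of 0.69 that stayed within 2-fold under all 9 scalings. miR-34a and its own opposite arm thus gave very different readings.

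Over the list of p53 transcriptional targets, 16 of the 18 assays on the panels were quantified. Of these 4 were higher by both scalings (25%, against 13.1% of all miRNAs) and 0 lower (against 6.83%). The list's median was -0.26 centred per panel, against -0.198 for all miRNAs, but 0.47 against 0.047 on the calibrator scale, 0.32 against -0.119 with blocks of columns centred and 0.41 against 0.011 after subtraction of neighbouring wells. Whether the list lies above or below all miRNAs thus depends on the scaling. The 4 were miR-34c-5p, miR-34b*, miR-34b and miR-149*, and none of them lies in the middle of panel I. The first 3 come from the miR-34b and miR-34c cluster, so the 4 are not separate loci. miR-34b went from Ct 34.6 to 31.9 (1.11, calibrators 1.84). miR-149*, reported as a p53 target that lowers GSK3A, went from 31.7 to 29.7 (2.09 and 2.03), and each of these 2 passed 2-fold under all 9 scalings.

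None of the other p53 targets was called higher or lower by both scalings. miR-192, miR-194 and miR-215, which p53 is reported to induce and which act on the cell cycle, went from 28.4 to 26.6 (0.30), 29.5 to 28.6 (-0.64) and 28.6 to 27.7 (-0.62). Their opposite arms miR-192* and miR-194* were at -0.29 and -0.37. miR-107, from an intron of PANK1, was at -0.35, miR-605 at 0.64, miR-34c-3p at -0.30 and miR-22* at -0.23. Of these, miR-194* alone kept its sign, below 0, under all 9 scalings. miR-192 was at 1.04 on the calibrator scale and at least 2-fold higher under 5 of 9 scalings, and miR-34c-3p, miR-22* and miR-107 were under 3, with miR-107 at least 2-fold lower under 2 others. miR-22 read 26.1 in both samples (-1.55) and miR-145 27.8 and 27.6 (-1.43), and both were within 2-fold on the calibrator scale, at -0.81 and -0.69. miR-145* read 35.1 and 33.5 and was not quantified.

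**Figure D3:**
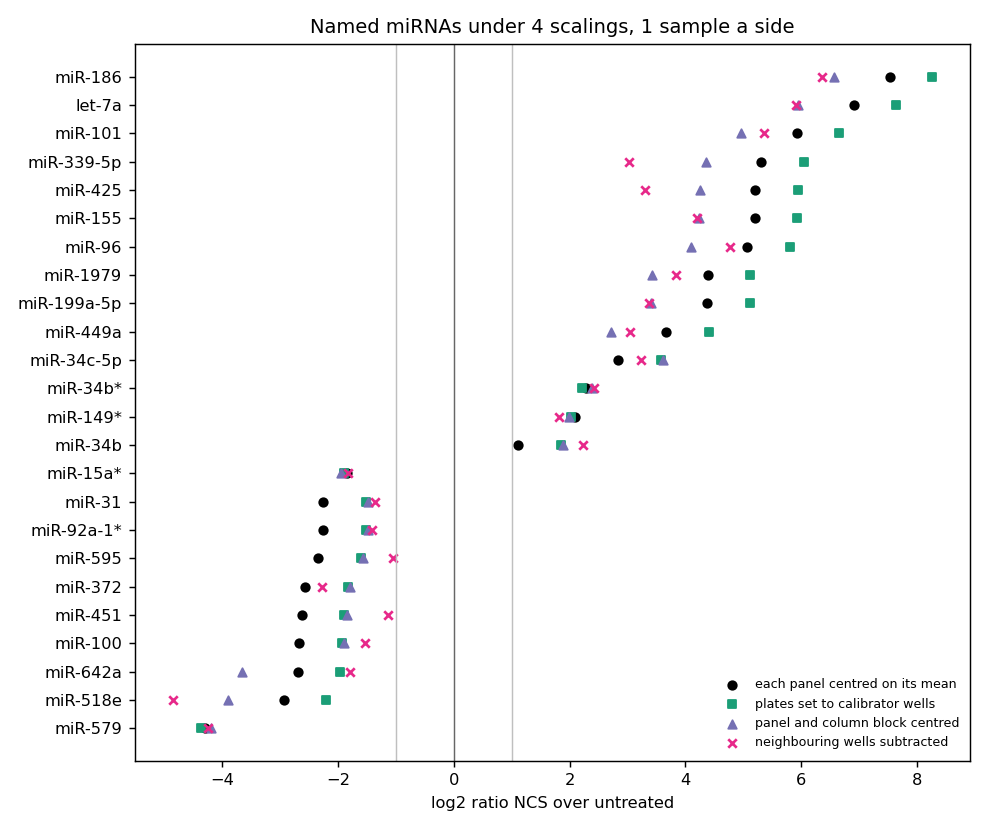
Log2 ratio of NCS over untreated for 24 named miRNAs under 4 scalings, 1 sample a side, with grey lines at 2-fold. miR-34c-5p, miR-34b*, miR-149* and miR-34b lie right of the 2-fold line under each of the 4, from 1.11 for miR-34b to beyond 3 for miR-34c-5p. miR-570, at 16.54, is not drawn.

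The highest ratio, that of miR-570, rests on Ct 33.4 in untreated and 15.3 in NCS-treated cells. Its well read 8.45 in shNS cells and 23.7 in shDDX1 cells. The next was miR-186, which went from 34.3 to 25.3, a log2 ratio of 7.53 (calibrators 8.27). miR-425, encoded beside miR-191 in an intron of DALRD3, went from 34.0 to 27.3 (5.21 and 5.94), while miR-191 itself hardly moved in raw Ct. miR-339-5p went from 32.8 to 25.9 (5.31 and 6.05), and miR-1979 from 26.2 to 20.3 (4.38 and 5.12). The 10 highest all lie in the middle columns of panel I, and each stayed at least 2-fold higher under all 9 scalings.

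Among miRNAs reported to repress damage response genes, 5 of 21 quantified assays were higher by both scalings (23.8%, against 13.1% of all miRNAs) and 1 lower (4.76%, against 6.83%), with a median of -0.49 against -0.198. miR-101, which acts on EZH2 and is reported to lower ATM and DNA-PKcs, went from Ct 32.2 to 24.8 (5.92). miR-155, a miRNA of immune activation, went from 34.69 to 27.96 (5.20). miR-96 went from 33.9 to 27.3 (5.06), and miR-138, reported to lower histone H2AX, from 33.2 to 27.5 (4.18). miR-16, reported to repress the phosphatase WIP1, went from 28.4 to 22.7 (4.18). All 5 lie in the middle of panel I. The lower member, miR-100, which acts on mTOR and is reported to act on ATM, went from 24.5 to 25.7 (-2.67, calibrators -1.93).

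None of the other members was called by both scalings. miR-24, reported to lower H2AX, went from 21.8 to 20.8 (-0.59), and miR-421, reported to lower ATM, from 27.3 to 26.9 (-1.14). miR-18a read 24.6 and 24.5 (-1.51), and miR-182, reported to lower BRCA1, 26.7 and 26.2 (-1.02). The last 3 were lower by the per-panel scaling, and on the calibrator scale they were at -0.41, -0.77 and -0.29. miR-504 and miR-125b, both reported to repress p53 mRNA, were at -0.44 and -0.49.

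The miRNAs reported to depend on KSRP included many of the high values. Of 16 quantified assays 7 were higher by both scalings (43.8%, against 13.1% of all miRNAs) and 1 lower (6.25%, against 6.83%). The median was 0.58 (calibrators 1.31). All 7 lie in the middle of panel I, as do 11 of the 16, and with blocks of columns centred the list's median was 0.10, against -0.119 for all miRNAs. The 7 were let-7a, miR-16, miR-21, miR-26b, miR-196a, miR-199a-5p and miR-199a-3p. miR-21, an abundant miRNA that represses PDCD4, went from Ct 23.4 to 19.7 (2.14, calibrators 2.88). miR-196a, encoded in the HOX clusters, went from 30.8 to 25.2 (4.06). miR-26b went from 29.1 to 26.2 (1.40), close to the 1.53 of miR-26a (26.7 to 23.6), which shares its seed and lies in an outer column. With blocks of columns centred they stood apart, at 0.44 for miR-26b, which then lost its call, and 2.31 for miR-26a. The lower member, miR-27b, read 22.8 and 23.3 (-2.07, calibrators -1.34).

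Within the let-7 family the members did not move together. let-7a went from Ct 32.48 to 24.04 (6.91, calibrators 7.64). let-7c, which differs from it by A19G, went from 29.4 to 27.8 (0.07), and let-7e, which differs by U9G, from 24.5 to 22.6 (0.40). let-7b read 24.5 and 23.9 (-1.02) and let-7g 23.6 and 23.3 (-1.21). Of 14 quantified assays let-7a was the single one higher by both scalings (7.14%, against 13.1% of all miRNAs), 0 were lower by both (against 6.83%), and the median was -0.06. let-7f and let-7i resembled let-7a in the direction of their readings. let-7f went from 35.6 to 24.9, at least 372-fold higher, and let-7i from undetermined to 26.4, at least 130-fold higher. With blocks of columns centred these bounds were 191-fold and 67.0-fold. The wells of let-7a, let-7f and let-7i are in the middle of panel I, those of let-7b, let-7c and let-7g in its outer columns, and let-7d (0.59) and let-7e are in the middle too. Whether an assay also reads a sequence that differs by 1 base was not tested.

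The seed of miR-15 and miR-16, which acts on BCL2 and the G1 cyclins, showed the same kind of spread. miR-16 was at 4.18, while miR-15a read Ct 22.9 and 22.7 (-1.32) and miR-15b 23.4 and 23.3 (-1.42). miR-195 went from 31.6 to 29.2 (0.90), miR-497 from 31.9 to 30.5 (-0.14) and miR-424 from 31.2 to 31.0 (-1.29). miR-15a*, the opposite arm of miR-15a, went from 30.6 to 32.6 (-1.84, calibrators -1.91) and was lower under all 9 scalings. Of 10 quantified assays 1 was thus higher and 1 lower by both scalings (10% each, against 13.1% and 6.83% of all miRNAs). miR-16, miR-143 and miR-145 have been reported to gain Drosha processing from p53 and DDX5. miR-143 went from 30.1 to 28.5 (0.08) and miR-145 was at -1.43, so miR-16 was the single member of that group to be higher.

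In the miR-183 cluster, whose 3 miRNAs come from 1 transcript and act in sensory organs, miR-96 (5.06) and miR-183 (Ct 33.6 to 28.6, 3.43) were higher by both scalings and miR-182 (-1.02) and miR-182* (-0.37) were not. miR-96 and miR-183 lie in the middle of panel I and miR-182 in an outer column. In the miR-200 family, which represses ZEB1 and ZEB2, 1 of 8 was higher (12.5%, near the 13.1% of all miRNAs), miR-200b at 1.69 (34.3 to 31.1). miR-200b lies in the middle of panel I and was at 0.73, within 2-fold, with blocks of columns centred. The other guide arms were between 0.36 and 0.83, miR-200b* was lowest at -0.85, and the family's median of 0.79 became 0.32 with blocks of columns centred.

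Stress-induced miRNAs under NF-kB or CREB showed 2 of 11 higher by both scalings (18.2%, near the 13.1% of all miRNAs), miR-155 and miR-21, and 0 lower (against 6.83%). miR-146a, a feedback inhibitor of NF-kB signalling, read 28.6 and 28.5 (-1.43, calibrators -0.69), and miR-132, a CREB target, 26.8 in both (-1.49 and -0.75). In the miR-29 family, which represses collagens, 2 of 7 were higher by both scalings (28.6%, against 13.1% of all miRNAs). They were miR-29b-2* (34.1 to 30.6, 2.04) and miR-29c* (34.2 to 33.2, 1.08). The abundant arms miR-29a, miR-29b and miR-29c stood at -0.89, -1.26 and -0.45. In the miR-30 family 2 of 8 were higher (25%, against 13.1%), miR-30e* (30.6 to 26.7, 2.39) and miR-30a* (30.8 to 29.8, 1.07), and miR-30a was lowest at -1.62. In both families the higher members were arms with star names. Of these, miR-29b-2* and miR-30e* lie in the middle of panel I and were at 1.08 and 1.43 with blocks of columns centred.

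The miR-17-92 cluster and its paralogues, targets of MYC that favour proliferation, had a median of -0.65 (calibrators -0.19). By both scalings 1 of 20 was higher (5%, against 13.1% of all miRNAs) and 2 lower (10%, against 6.83%). Centred per panel alone, 6 of the 20 were lower, against 20.5% of all miRNAs. miR-18a* went from Ct 33.0 to 27.2 (4.22). miR-92a-1* went from 28.9 to 29.6 (-2.26, calibrators -1.53) and miR-106a* from 33.6 to 34.8 (-1.13). The main arms of the miR-106b, miR-93 and miR-25 transcript were at 0.27, -0.72 and 0.12. By both scalings, 0 of the 11 assays for miR-99, miR-100 and miR-125 were higher (against 13.1%) and 1, miR-100, was lower (9.09%, against 6.83%). miR-99a, which differs from miR-100 by U16A, was at -1.59 and -0.86 on the calibrator scale. Centred per panel alone, 3 of the 11 were lower, miR-100, miR-99a and miR-99a*, against 20.5% of all miRNAs. miR-99b was at 0.07 and miR-125a-3p highest at 0.51. For miR-221 and miR-222, miR-221* was higher (31.8 to 30.7, 1.19) and miR-221 was at -1.05 (21.3 to 20.8, calibrators -0.32). Of 8 miRNAs made without Drosha (mirtrons and related hairpins), 0 were called by both scalings, from -1.29 for miR-484 to 0.62 for miR-877*.

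**Figure D4:**
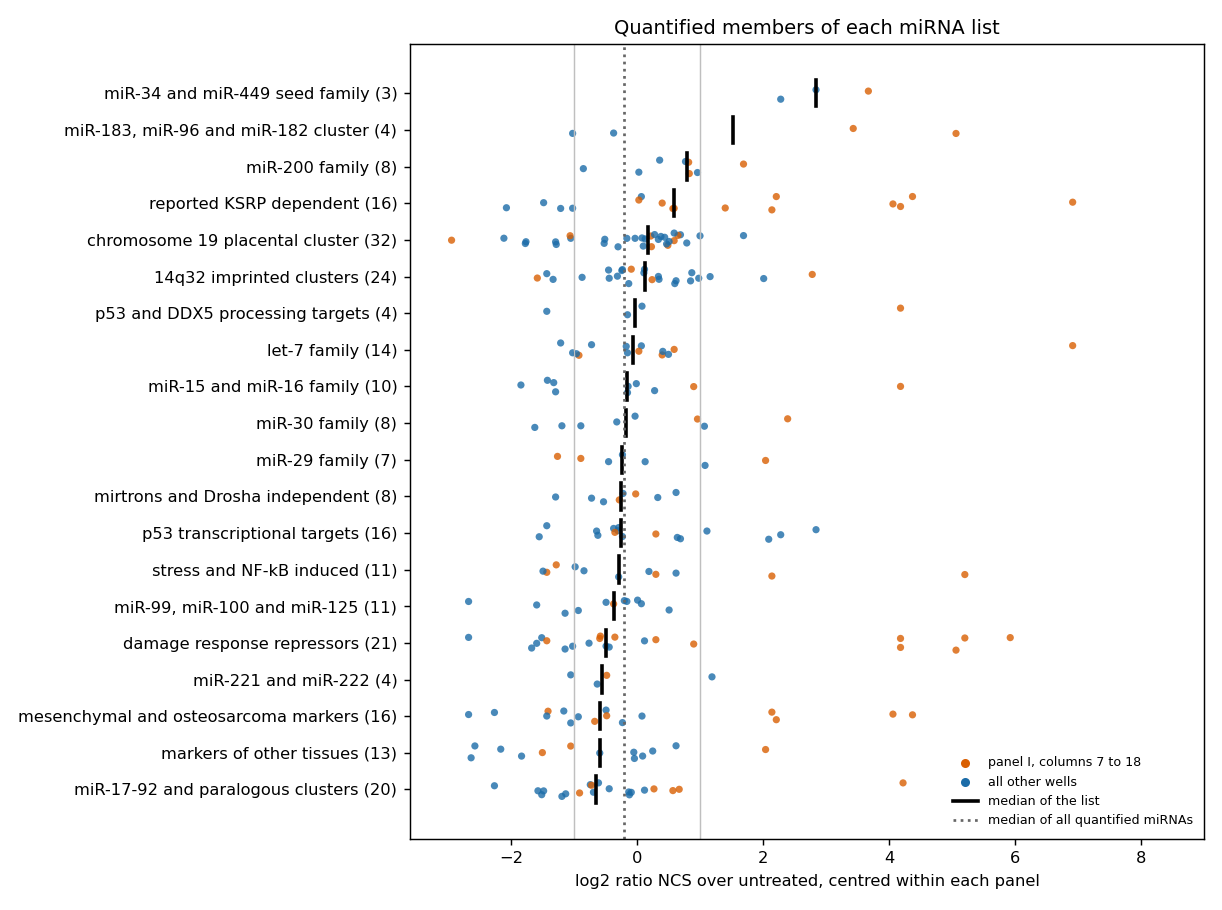
Log2 ratio centred within each panel for the quantified members of 20 miRNA lists, with the number quantified in brackets, the median of each list as a black bar, and the median of all quantified miRNAs (-0.198) as a dotted line. Grey lines mark 2-fold, and orange points lie in columns 7 to 18 of panel I. Most points right of 2 are orange, and those that are not include miR-34c-5p, miR-34b* and miR-149*. The vertical scatter within a list has no meaning.

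The tissue of origin was checked with mesenchymal and osteosarcoma miRNAs. All 16 were quantified, among them miR-21, miR-221, miR-222, miR-100, miR-31 and miR-10a, at a Ct under 29 in both samples. Others were later, with miR-10b at 32.5 and 31.1. miR-143, miR-196a, miR-199a-5p, miR-199a-3p and miR-31* were past 29 in untreated cells. By both scalings 4 were higher (25%, against 13.1% of all miRNAs), miR-21, miR-196a, miR-199a-5p and miR-199a-3p, and 2 lower (12.5%, against 6.83%), miR-100 and miR-31. miR-199a-5p went from Ct 31.9 to 26.0 (4.37) and miR-199a-3p, the opposite arm of its hairpin, from 29.9 to 26.2 (2.21). The third miRNA of that transcript, miR-214, read 26.5 and 26.4 (-1.41). miR-31 went from 26.7 to 27.4 (-2.26, calibrators -1.53).

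Of 24 assays that mark other tissues 13 were quantified, at a Ct of 25.3 or later in every case. Under Ct 29 in both samples were the neural miR-9 (27.5 and 25.3) and miR-137 (28.7 and 28.2), and the endocrine miR-375 (28.96 and 28.92). A Ct under 29 thus does not separate these markers from the mesenchymal ones. The muscle miRNA miR-1 and miR-302b of pluripotent cells were undetermined in untreated cells, and miR-302c in both samples. In the 13, 1 was higher by both scalings and 4 lower (7.69% and 30.8%, against 13.1% and 6.83% of all miRNAs). The leucocyte miRNA miR-142-3p went from 31.9 to 28.3 (2.04), with its opposite arm miR-142-5p at -0.05. The erythroid miR-451, made by Argonaute2 without Dicer, went from 30.5 to 31.6 (-2.63), and miR-372 of pluripotent cells from 32.8 to 33.8 (-2.57). The liver miRNA miR-122 (32.8 to 33.4, -2.16) and the myeloid miR-223 (32.2 to 32.5, -1.83) were lower too. On the calibrator scale these 4 were at -1.89, -1.83, -1.42 and -1.10, and miR-122 passed 2-fold under 5 of 9 scalings.

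Of the 34 miRNAs lower by both scalings, 18 are panel II assays. miR-579 went from Ct 29.9 to 34.3 (-4.31, calibrators -4.37). The placental miRNA miR-518e went from 32.3 to 33.7 (-2.94 and -2.20) and miR-642a from 33.6 to 34.7 (-2.70 and -1.96). miR-595 was at -2.35 and -1.61 and passed 2-fold under 7 of 9 scalings, and miR-31 and miR-92a-1* did under 6. miR-642a, miR-31, miR-451, miR-100 and miR-27b lie in adjacent wells of panel I, P18 to P22, in the last plate row. After subtraction of neighbouring wells they were at -1.80, -1.37, -1.14, -1.54 and -1.36. The part of this shared position in their values was not tested. On panel II, miR-525-3p went from 31.6 to 33.8 (-2.11), miR-520d-3p from 31.6 to 33.5 (-1.77) and miR-2113 from 31.9 to 33.7 (-1.71). The chromosome 19 cluster holds the placental ones. By both scalings, 4 of 32 quantified assays on its list were lower (12.5%, against 6.83% of all miRNAs). They were miR-518e, miR-525-3p, miR-520d-3p and miR-518c*, of which miR-518c* was at -0.98 with blocks of columns centred. The 1 higher (3.12%, against 13.1%) was miR-519c-3p at 1.69. Centred per panel alone, 8 of the 32 were lower and 2 higher, against 20.5% and 13.7% of all miRNAs. The median of the list was 0.18. The list is incomplete, as joining neighbouring hairpins gave 35 quantified assays, of which 2 were higher and 4 lower by both scalings.

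Across the 8 scalings of the deposited Ct, 43 miRNAs were called higher and 17 lower in every one. Of the 43, 35 are panel I assays and 8 panel II assays, and of the 17, 5 and 12. The 8 on panel II were miR-34b*, miR-149*, miR-1183, miR-619, miR-634, miR-489, miR-1179 and the assay miRPlus-C1066. Apart from miR-34b* and miR-149*, their untreated Ct lay between 34.0 and 34.6.

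The imprinted clusters at 14q32, which are expressed mainly in placenta, brain and embryonic tissue, were near the limit of detection. Of 57 assays 24 were quantified, 20 were under Ct 35 only after NCS and 3 only in untreated cells, against 90 and 20 of all 737 assays. Of the 24, 3 were higher by both scalings (12.5%, near the 13.1% of all miRNAs), miR-376a (34.1 to 29.8, 2.78), miR-495 (34.3 to 30.7, 2.01) and miR-889 (34.6 to 33.6, 1.16). By both scalings 0 were lower, and centred per panel alone 3 were. The lowest was miR-299-3p at -1.58 (calibrators -0.85), and the median was 0.12. As a bound, miR-329 went from 37.3 to 30.3, a lower limit of 8.80-fold, which was 4.52-fold once blocks of columns were centred.

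Bounds were taken for miRNAs under Ct 32 in 1 sample and not under 35 in the other. There were 22 on the higher side, all on panel I and 20 of them in its middle columns, with lower limits from 2.98-fold to 912-fold. With blocks of columns centred the limits ran from 1.53-fold to 469-fold, and those of miR-888, miR-127-3p, miR-129-5p, miR-376b and miR-411 were under 2-fold. After miR-34a and let-7f the largest were miR-572 (Ct 39.8 to 24.9, at least 366-fold), let-7i, miR-548c-3p (undetermined to 27.99, at least 44.4-fold), miR-652 (36.5 to 28.1, at least 40.5-fold) and miR-625* (39.9 to 28.2, at least 38.4-fold). miR-30b*, miR-615-3p, miR-361-3p, miR-488 and miR-30c-2* followed, between 22.1-fold and 9.57-fold. The block-centred limits were 188-fold for miR-572, 22.8-fold for miR-548c-3p, 20.8-fold for miR-652 and 19.7-fold for miR-625*. On the lower side there were 3, all on panel II. miR-412 went from 31.4 to 37.4 (at least 11.0-fold lower), miR-146b-3p from 31.5 to undetermined (at least 10.5-fold) and miR-7-2* from 31.7 to 35.3 (at least 9.02-fold). Of the 22 and the 3, 5 and 1 were undetermined in the sample without a level.

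Both arms were quantified for 110 hairpins, counted as pairs of assay names. The arms of 1 hairpin come from 1 precursor, but some names have several loci, such as let-7a with 3 and miR-199a-5p with 2. An assay for such a name can read more than 1 precursor, so its pair need not stand for a single hairpin. The first arm, named as the guide or -5p, was higher by both scalings in 16, and in 3 of these the opposite arm was higher too. These 3 were miR-34b with miR-34b*, miR-101 with miR-101* (5.92 and 1.42) and miR-199a-5p with miR-199a-3p. In 1 of the 16 the opposite arm was lower, with miR-148b at 2.52 and miR-148b* at -1.37. The median of the 16 first arms was 2.33 and that of their opposite arms -0.14. For let-7a and let-7a* the values were 6.91 and -0.15, for miR-155 and miR-155* 5.20 and 0.19, for miR-425 and miR-425* 5.21 and -0.26, and for miR-21 and miR-21* 2.14 and -1.28. In the other direction miR-18a was at -1.51 and miR-18a* at 4.22, and miR-149 at -0.86 and miR-149* at 2.09.

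Over all 110 hairpins the median absolute difference between arms was 0.99, and 65 had the same sign in both. Across hairpins, which share plates and samples and are not replicates, Pearson's r between the arms was 0.158 and Spearman's rho 0.189. In the 16 hairpins above, 13 first arms and 3 opposite arms lie in the middle of panel I, and 12 opposite arms lie on panel II. The arms of 81 of the 110 hairpins are on different panels, and the part of this in the difference was not tested. Both arms were lower by both scalings for 1 hairpin, with miR-181a at -1.98 and miR-181a* at -1.77, the latter at -0.996 with blocks of columns centred.

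**Figure D5:**
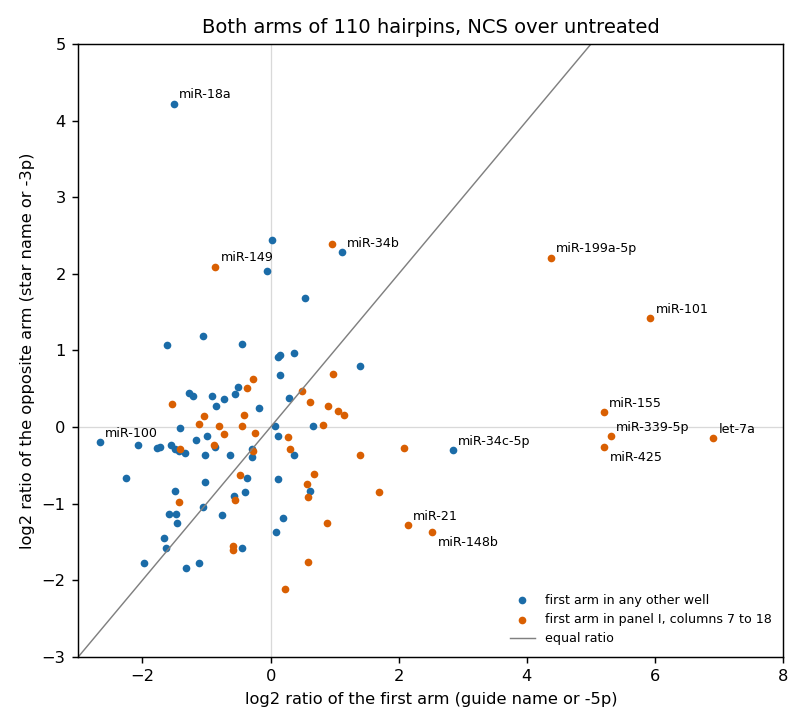
Log2 ratio, centred within each panel, of the opposite arm (vertical axis) against the first arm (horizontal axis) for 110 hairpins with both arms quantified. Orange points have the first arm in columns 7 to 18 of panel I. Points with a first arm beyond 4 have opposite arms from -0.26 for miR-425* to 2.21 for miR-199a-3p, far below the line of equal ratios.

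Neighbouring miRNA genes also differed. Hairpins on 1 strand within 10 kb of each other were joined, for the 452 quantified assays that matched a hairpin of the RefSeq table, and 36 such clusters had at least 3 quantified assays. The median SD within a cluster was 0.975, against 1.54 over all quantified miRNAs. The latter is a single SD that includes miR-570 at 16.54, so the gap does not show that neighbours were more alike. Members of the miR-425 and miR-191 cluster ranged from -0.87 to 5.21, those of miR-15a and miR-16-1 from -1.84 to 4.18, and those of let-7a-1, let-7f-1 and let-7d from -0.92 to 6.91. The miR-34b and miR-34c cluster ranged from -0.30 to 2.84, with 3 of 4 assays higher, and that of miR-106b, miR-93 and miR-25 from -0.72 to 0.27. By both scalings, 6 of the 36 held a higher and a lower member, and 14 held no called miRNA. An assay for a sequence with several loci is counted in each of its clusters.

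The shNS sample gives a further reading of the same wells, although the ratio and the difference from shNS share a Ct. Over the 45 panel I miRNAs higher by both scalings, the untreated sample read a median of 7.16 cycles later than shNS, against 4.58 for all quantified wells of the panel. The NCS sample read 3 cycles later, against 3.12 for the panel. All 45 were later in untreated cells than the panel's median, and 19 of 45 were later after NCS. These miRNAs were selected on that same untreated Ct, so their lateness in it is partly set by the selection. Differences from shNS also spread more in untreated cells on panel I, with an SD of 2.36 cycles against 1.31 after NCS. The comparison therefore cannot show which sample departed. The 18 lower miRNAs of panel II read a median of 5.35 cycles later than shNS after NCS, against 3.33 for the panel. In untreated cells they read 3.26 against 3.27. The SDs on panel II were 1.51 in untreated cells and 1.63 after NCS, and the same limit of selection holds. The 20 higher ones on panel II were 3.98 cycles later in untreated cells and 2.99 after NCS, against 3.27 and 3.33. Whether signal was lost in 1 sample or gained in the other was not tested.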

How the data were processed

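Per the labels' protocols, total RNA of U2OS cells was extracted with Trizol and reverse transcribed with an Exiqon kit. The authors deposited a table of Ct per well, with undetermined wells marked, and a normalized table of shifted Ct, values on a log2 scale whose making is not given in the sources used here and which served as an alternative only. The instrument, threshold and baseline are not given in the sources used here. Blank wells, spike-ins, small RNAs and bracketed names were left out of counts. Ratios, calls at 2-fold and bounds against Ct 35 were computed with Python 3.11.15, numpy 2.4.6 and pandas 2.3.3, tested on simulated data. Position blocks were columns 7 to 18 and the rest. Sequences and loci are RefSeq's on GRCh38.p14, and 39 of 43 names looked up gave a sequence. Gene spans were matched on either strand.

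The comparison, members, lists and alternatives were chosen with earlier results of these data known. Named were the 10 highest and 10 lowest miRNAs by both scalings, all p53 target and miR-34 and miR-449 members, the extremes of other lists, reference assays, the 12 largest bounds, and counts of 5 or fewer. Others were chosen after their values were seen. Alternatives were other centrings, the authors' shifted Ct, Ct limits of 37 and 32, thresholds of 1.5-fold and 4-fold, and removal of wells under Ct 12.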

Additional observations from a re-analysis of the deposited data

Results flagged for a closer look

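The assay named (hsa-miR-220b) in brackets lies outside the miRNA counts, and its signal after NCS drew attention. It read Ct 36.2 in untreated cells and 33.1 after NCS, a log2 ratio of 3.24 centred within panel II, while the blank wells gave no Ct in either sample.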

How the results depend on the processing

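No paired analysis was possible because untreated and NCS-treated cells have 1 sample each. Each ratio rests on 1 well a side, so a difference near the panel-to-panel SD of 1.06 was not resolved at this depth. That SD includes the shift between panels and was not measured for the middle columns. Beside 68 higher and 102 lower miRNAs, 144 and 29 were called with no centring, 150 and 19 against small RNAs, 156 and 32 in the authors' shifted Ct, 36 and 36 under Ct 32, 115 and 172 at 1.5-fold, and 38 and 12 at 4-fold. The panel median, the calibrators and neighbouring wells gave 50, 39 and 63 lower. By both scalings, beside 65 and 34, there were 33 and 12 under Ct 32, 108 and 102 at 1.5-fold, and 36 and 3 at 4-fold. Other alternatives kept these counts within 1.5 times. Among named miRNAs past 2-fold per panel, signs reversed without centring for miR-145 (0.11), miR-132 (0.04), let-7g (0.33), miR-29b (0.28), miR-182 (0.51), miR-221 (0.48) and miR-484 (0.24). Smaller values turned as well, such as those of miR-194 (0.90), miR-215 (0.92), miR-107 (1.19), miR-34c-3p (1.24) and miR-22* (1.30) without centring. Those past 2-fold reversed against small RNAs for let-7g (0.14), miR-29b (0.09), miR-182 (0.32), miR-221 (0.29) and miR-484 (0.05), after subtraction of neighbouring wells for let-7g (0.06) and miR-182 (0.23), and in the authors' shifted Ct for miR-145 (0.18), miR-22 (0.16), miR-132 (0.10), let-7g (0.65), miR-221 (0.46) and miR-484 (0.31). The median of the miR-183 cluster was -0.50 under Ct 32, where fewer members are quantified. For the rest the cause was not tested. The panel median, the calibrators, 1 mean over both panels and blocks of columns each shift all wells of a panel or block by the same amount. That shift was under 1.06 for all 62 named miRNAs, which is a property of the scalings and no check of a single miRNA. Several small values changed sign.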
